A study of Mus musculus with 3 samples.

Results

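The 44 genes described here encode channels, pumps, exchangers and effectors that move calcium ions or respond to them. They were chosen by name from genes with a known role in calcium handling, with the measured signals of the same arrays in view, so their ratios are given as a description and no test was made on them. All 44 were found, among 35451 genes on the array, through 76 probes. Expression was measured in mouse embryonic fibroblasts (MEF), primary cells that grow out of the embryo after its head, legs and inner organs are removed, from C57BL/6 mice. There were 3 groups of 1 array each. The control MEF are labelled as given no treatment, while the study's text describes them as given the solvent DMSO. The other groups received n-butylidenephthalide (BP), a phthalide from the root of Angelica sinensis, at 10 or 40 µg/ml. The length of treatment is not given in the sources used here. The labels name no transgene or deletion in any group. With 1 array per group no difference between cultures can be tested, and no p-value is given.

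Calcium is kept scarce in the cytosol, because pumps and exchangers carry it into the endoplasmic reticulum or out of the cell. A signal opens channels, the ion flows back along its gradient, and calmodulin carries the message to kinases and to the phosphatase calcineurin. Fibroblasts are known mainly for release through IP3 receptors and for the store-operated entry that follows, while ryanodine receptors and voltage-gated channels are best known from muscle and nerve. Because MEF cultures are bulk samples, fewer cells of a type and less RNA per cell cannot be told apart in any value below.

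Levels are log2 signals relative to the 75th percentile of the gene spots on the same array, so a level of 0 lies at that percentile. A difference of 1 in level is a 2-fold ratio. Different genes are read by different probes, so a brighter or dimmer signal describes the probe and does not order the genes by amount of transcript. Each ratio carries an error that was taken from the scanner software's estimate for the spots and covers the array measurement only. The share of gene spots well above background was 81.7% on the control array, 68.3% with BP at 10 µg/ml and 69.1% at 40 µg/ml. Of the 44 calcium genes, 42, 39 and 38 were well above background on these arrays. The 3 arrays lay on 1 slide, but the control array was scanned in a session of its own, so in every comparison against the control the effects of BP and of the scan cannot be told apart. All 8 fibroblast markers were well above background on every array. Their summed signal, in units of each array's 75th percentile, was 1162 in control MEF, 799 at 10 µg/ml and 878 at 40 µg/ml, and their median log2 ratios against the control were -0.66 and -0.63. Dcn was called lower at 10 µg/ml (-1.05) and Col3a1 at 40 µg/ml (-1.22), by the 2-fold rule given next. All 6 macrophage markers were well above background on every array and none was called.

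A gene was called when its ratio reached 2-fold, provided that 1 or both of the compared arrays showed its probe well above background. With a single such array the ratio is a bound. With BP at 10 µg/ml, 9 of the 44 genes were called against the control, 4 lower and 5 higher, where 12.9% of all genes were called, 10.3% lower and 2.6% higher. At 40 µg/ml there were again 9, now 7 lower and 2 higher, where 11.5% of all genes were called, 9% lower and 2.5% higher. Between the doses 2 genes were called, both lower at 40 µg/ml, where 3.65% of all genes were called, 1.77% lower and 1.88% higher. Over the 44 genes the log2 ratio had a median of -0.04 at 10 µg/ml and -0.02 at 40 µg/ml against the control, and that of all genes was -0.23 and -0.11. These medians take the measured ratios, with dim probes included and without bounds. Both comparisons share the control array. The split of the calls moved with the scaling. Quantile normalization gave 3 lower and 6 higher at 10 µg/ml, where 10.0% of all genes were called. Subtracting the median ratio of all genes at each gene's brightness gave 1 lower and 7 higher there (8.90% of all genes called). At 40 µg/ml that subtraction gave 4 lower and 3 higher (8.45% of all genes called). The normexp background correction gave 1 lower and 3 higher at 10 µg/ml (4.06% of all genes called). At 40 µg/ml normexp gave 1 lower and 2 higher (3.05% of all genes called).

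**Figure D1:**
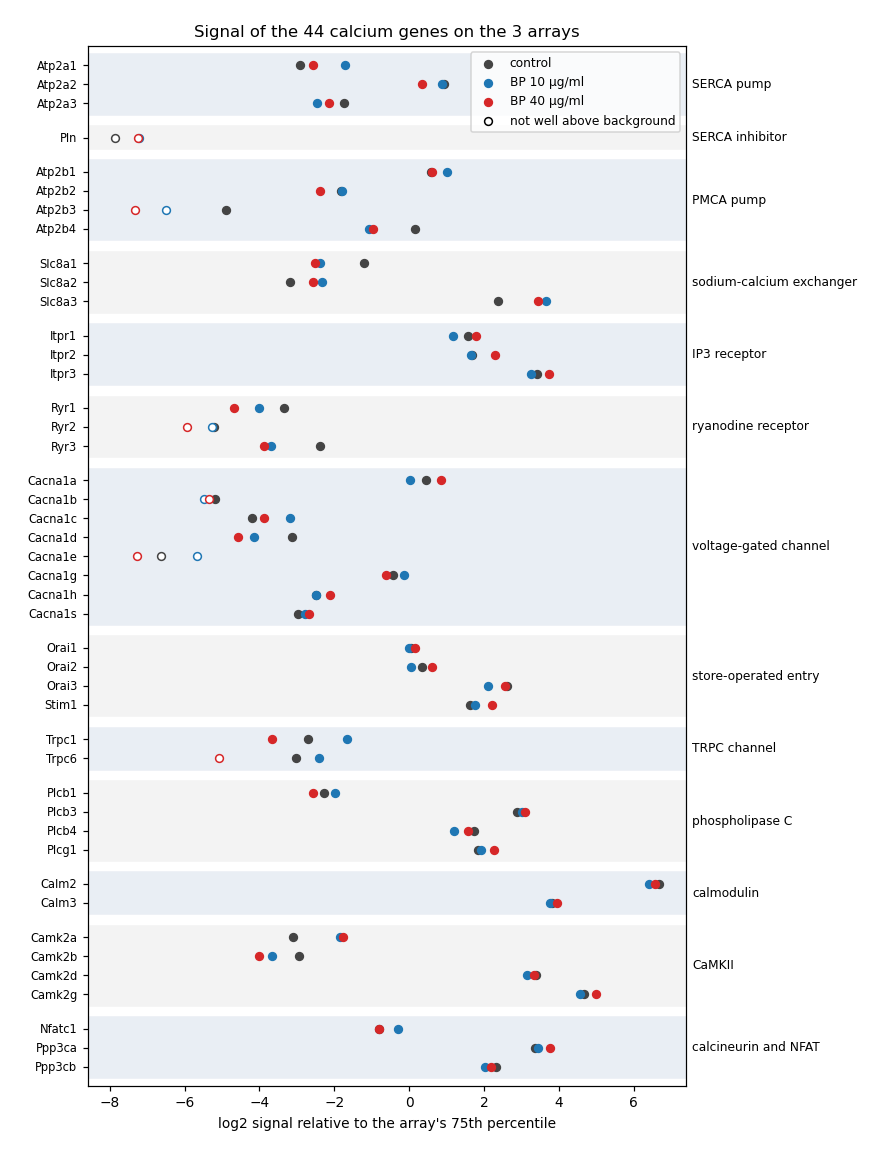
Log2 signal of the 44 calcium genes relative to each array's 75th percentile (horizontal axis), grouped by role, with 1 point per array and open points where the probe was not well above background. The calmodulin genes Calm2 and Calm3, the kinase Camk2g and the IP3 receptor Itpr3 lie far to the right on all 3 arrays, and the ryanodine receptors lie below 0. Points of different genes come from different probes.

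The 4 genes called lower at both doses were a plasma membrane pump (Atp2b4), an exchanger (Slc8a1), a ryanodine receptor (Ryr3) and a voltage-gated channel (Cacna1d). The exchanger Slc8a3 and the kinase gene Camk2a were the genes called higher at both doses. These 4 are 9.09% of the 44 genes, and 2217 of the 35451 genes on the array (6.25%) were called lower at both doses and 342 higher at both. Of the 44 genes, 32 were called in none of the 3 comparisons, and so were 29030 of all genes.

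The SERCA pumps return calcium to the endoplasmic reticulum. Atp2a2, which encodes the pump used in most cell types, had levels of 0.92 in control MEF, 0.89 at 10 µg/ml and 0.33 at 40 µg/ml. Its ratio against the control was -0.03 ± 0.20 at the low dose and -0.59 ± 0.20 at the high dose, short of 2-fold in both. A second Atp2a2 probe gave 1.13 and 0.66 in the same comparisons, so the probes of this gene did not share a direction. Atp2a1, the pump of fast skeletal muscle, had levels of -2.93, -1.72 and -2.57, and was called higher at 10 µg/ml (2.31-fold, log2 ratio 1.21 ± 0.21) but not at 40 µg/ml (0.36 ± 0.22). Atp2a3, best known from blood and epithelial cells, had ratios of -0.72 and -0.41. Pln, which encodes the muscle SERCA inhibitor phospholamban, was not well above background on any array, so its ratios were not used for calls.

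The PMCA pumps of the plasma membrane expel calcium. Atp2b4 had a level of 0.15 in control MEF, -1.07 at 10 µg/ml and -0.97 at 40 µg/ml. Both BP arrays lay below the control, by 2.34-fold (log2 ratio -1.22 ± 0.20) and 2.17-fold (-1.12 ± 0.20). The probe lies at chr1:135603249-135603308 (mm9), and the first 30 of its 60 bases are shown here, as for the other probes below, so that the measured piece of transcript can be found.
Atp2b4: attctgacagccctctgccaagcctggaga
A second Atp2b4 probe that was well above background on all 3 arrays gave -0.65 and -0.78, the same direction with smaller size, and the median over all its probes was -0.65 at 10 µg/ml, which is no call. Atp2b1, the widely expressed pump of this family, had levels of 0.59, 1.02 and 0.62 and was not called in any comparison. Its ratios were 0.44 and 0.03, and its second probe gave -0.16 and -0.41. Atp2b2, known from the inner ear and cerebellum, had ratios of 0.05 and -0.56, and its second probe gave 0.87 and 0.14. Atp2b3, a pump known from the nervous system, was well above background in control MEF only, and its bound fell short of 2-fold at both doses.

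The sodium-calcium exchangers trade sodium for calcium across the plasma membrane, and the 3 genes did not move in 1 direction. Slc8a1, the exchanger of heart muscle, had a level of -1.21 in control MEF, -2.39 at 10 µg/ml and -2.52 at 40 µg/ml. The BP arrays were lower by 2.26-fold (log2 ratio -1.18 ± 0.21) and 2.47-fold (-1.31 ± 0.21). A second probe in the same gene gave -1.19 and -1.47, and the other was not well above background on any array. The pair of probes above background lies at chr17:81844210-81844269 and chr17:81844837-81844896 (mm9), with these starts:
Slc8a1, probe used: aaagagtgcagtttctcccttgtgcttgag
Slc8a1, second probe: tatgagaaaaacaagaccttcttcattgag
Slc8a3, an exchanger known from brain and skeletal muscle, went the other way. Its level was 2.36 in control MEF, 3.65 at 10 µg/ml and 3.45 at 40 µg/ml, higher by 2.44-fold (log2 ratio 1.29 ± 0.20) and 2.13-fold (1.09 ± 0.20). Its probe was the only one among the called genes with a mean level above 0. Its second probe was dim, with levels of -3.47, -2.96 and -3.07. That probe also gave ratios above 0, but of 0.52 and 0.41, which did not reach 2-fold. These probes lie at chr12:82299156-82299215 and chr12:82317709-82317768 (mm9):
Slc8a3, probe used: tgtgtgttttgaaaagacctggctttaaat
Slc8a3, second probe: aacaagaattacgtcattgagatgatgggc
Slc8a2, an exchanger of the brain, had levels of -3.19, -2.32 and -2.58, and its ratios of 0.87 ± 0.22 and 0.61 ± 0.22 stayed under 2-fold.

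**Figure D2:**
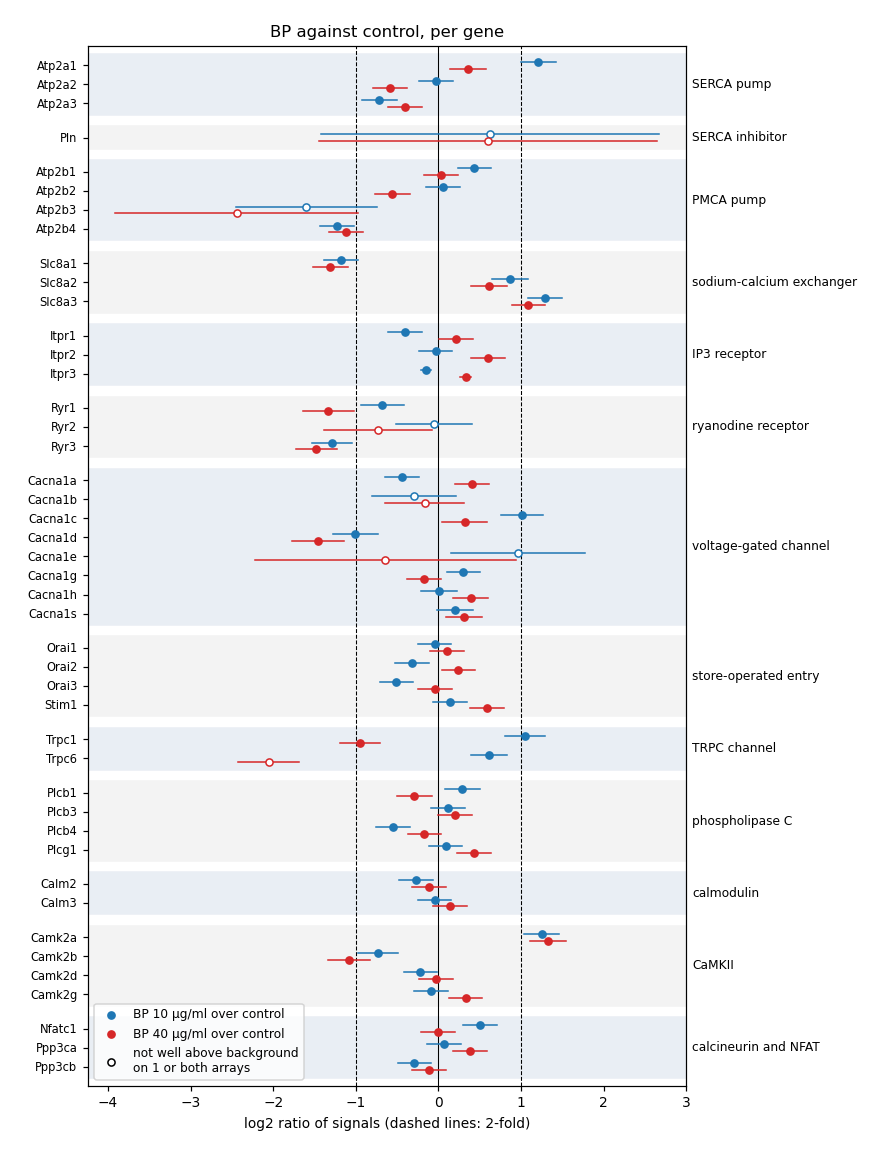
Log2 ratio of each calcium gene with BP at 10 µg/ml (blue) and 40 µg/ml (red) over the control array, with bars for the error of the array measurement and dashed lines at 2-fold. Open points are genes not well above background on either or both of the compared arrays, drawn at the measured ratio without bounds. Slc8a1 and Slc8a3 lie on opposite sides of 0 at both doses, and Trpc1 lies on opposite sides at the 2 doses.

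IP3 receptors release calcium from the endoplasmic reticulum when phospholipase C has made IP3. All 3 were well above background on every array and none was called. Itpr3 had levels of 3.41, 3.26 and 3.74, Itpr2 of 1.69, 1.66 and 2.29, and Itpr1 of 1.58, 1.18 and 1.80 in control MEF, at 10 µg/ml and at 40 µg/ml. The ratios against the control ran from -0.40 to -0.04 at 10 µg/ml and from 0.22 to 0.60 at 40 µg/ml, and those between the doses from 0.48 to 0.63, all within 2-fold. The other Itpr2 probe was not well above background on any array.

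Ryanodine receptors, the release channels of muscle and nerve, gave dim signals, and all 3 levels were below the 75th percentile on every array. Ryr3 had a level of -2.39 in control MEF, -3.68 at 10 µg/ml and -3.87 at 40 µg/ml. It was lower by 2.44-fold (log2 ratio -1.29 ± 0.24) and 2.79-fold (-1.48 ± 0.25). Its single probe lies at chr2:112471537-112471596 (mm9):
Ryr3: agctgccatgttttaggtcaatctccaata
Ryr1, the receptor of skeletal muscle, had levels of -3.35, -4.02 and -4.68. It was called lower at 40 µg/ml (2.52-fold, log2 ratio -1.33 ± 0.31) and its ratio of -0.68 ± 0.26 at 10 µg/ml did not reach 2-fold. Ryr2, the receptor of heart muscle, was well above background on the control array only. Of 10 skeletal muscle markers, 9 were well above background in control MEF and 7 on each BP array. Myh8 and Tnnc2 were called lower at 10 µg/ml and Myh8 at 40 µg/ml, and the median log2 ratio of the 10 was -0.83 and -0.26. Their summed signal was 16.0, 15.5 and 17.2, and Ttn was not well above background on any array. Most of that sum is Acta1, with levels of 3.89, 3.89 and 4.04, while the other markers all had levels below 0. Of 6 cardiac markers, 6, 5 and 6 were well above background, with summed signals of 1.33, 1.62 and 0.825 and median ratios of -0.32 and -0.71, and Myl7 was called lower at 10 µg/ml. The part of these cells in the ratios was not tested.

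Voltage-gated channel genes (Cacna1) encode the pores that open when the membrane depolarizes. Of the 8, 6 were well above background on all 3 arrays, and 2 were called. Cacna1d, an L-type pore of endocrine cells and the heart's pacemaker, had levels of -3.12, -4.13 and -4.58, lower by 2.01-fold at 10 µg/ml (log2 ratio -1.01 ± 0.27) and 2.75-fold at 40 µg/ml (-1.46 ± 0.32). The low-dose value lies at the limit of a call, and it was past 2-fold under 2 of the 6 alternative settings that change ratios. Cacna1c, the L-type pore of heart and smooth muscle, had levels of -4.20, -3.18 and -3.88, higher by 2.02-fold at 10 µg/ml (1.01 ± 0.25) and not called at 40 µg/ml (0.32 ± 0.27). That Cacna1c call was past 2-fold under 4 of the 6 alternative settings. Cacna1d and Cacna1c thus had opposite signs at both doses. Cacna1a, a P/Q-type pore of nerve endings, gave the brightest signal of the family, with levels of 0.46, 0.01 and 0.86 and ratios of -0.45 and 0.40. Its second probe gave -0.96 and -0.44. The T-type pore Cacna1g had levels of -0.44, -0.14 and -0.61, and ratios of 0.30 and -0.17. The T-type Cacna1h and the skeletal muscle pore Cacna1s had ratios between 0.01 and 0.39, although their second probes gave 1.11 and 1.06 for Cacna1h and -1.19 and -0.46 for Cacna1s. Cacna1b was well above background in control MEF only, and Cacna1e on no array.

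Store-operated entry refills the endoplasmic reticulum. Stim1 senses its calcium and opens the Orai pores in the plasma membrane. All 4 genes were well above background on each array and none was called. Stim1 had levels of 1.63, 1.77 and 2.22, with ratios of 0.14 ± 0.20 and 0.59 ± 0.20. Its 2 probes overlap on the genome and gave 0.14 and 0.01 at 10 µg/ml and 0.59 and 0.35 at 40 µg/ml. Orai3 had levels of 2.60, 2.10 and 2.56, and ratios of -0.51 and -0.04, while its other probes gave -0.10 and -0.08, and 0.33 and 0.38. Orai1 had ratios of -0.05 and 0.11, and Orai2 of -0.32 and 0.24.

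The TRPC channels admit calcium and sodium after phospholipase C is activated. Both members separated the doses. Trpc1 had a level of -2.71 in control MEF, -1.66 at 10 µg/ml and -3.67 at 40 µg/ml. It was higher than the control by 2.07-fold at the low dose (log2 ratio 1.05 ± 0.25), and its ratio of -0.95 ± 0.25 at the high dose fell just short of 2-fold. Between the doses it was 4.0-fold lower at 40 µg/ml (log2 ratio -2.0 ± 0.27). Trpc6 had levels of -3.02 and -2.40 in control MEF and at 10 µg/ml, and at 40 µg/ml it was not well above background. With the 75th percentile scaling the bounds were 4.10-fold lower at 40 µg/ml than in control MEF and 6.27-fold lower than at 10 µg/ml. Each log2 ratio had an error of 0.36. Quantile normalization gave Trpc6 log2 ratios of -1.67 and -2.58. Subtracting the median ratio at each brightness gave -1.57 and -2.71. Under normexp its log2 ratios were -0.78, which is no call, and -1.39. The comparison between the doses does not use the control array, and both BP arrays were scanned in 1 session. Each gene has 1 probe, both on chromosome 9, at chr9:95607155-95607214 for Trpc1 and chr9:8680682-8680741 for Trpc6 (mm9):
Trpc1: gggatttgcttggctttcggacttctaaat
Trpc6: agagtcctaatatcaactttttgggtgatt
Smooth muscle markers, counted because TRPC channels are well known there, were all above background on each array, and their summed signal was 729, 739 and 792. The median log2 ratio of the 6 was 0.11 and 0.12 against the control and -0.06 between the doses. Myh11 was the single one called, lower at 40 µg/ml than at 10 µg/ml by a log2 ratio of -1.35. At 40 µg/ml against the control Acta2, Cnn1, Tagln and Des had ratios of 0.11 to 0.36, while Myh11 had -0.78 and Smtn -0.04. The part of these cells in the ratios was not tested.

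Phospholipase C enzymes make the IP3 that opens the release channels. The 4 genes were well above background on every array and none was called. Plcb3 gave the brightest signal, with levels of 2.89, 3.01 and 3.10, and ratios of 0.11 and 0.20. Plcg1, which is activated by receptor tyrosine kinases, had levels of 1.83, 1.92 and 2.27, and ratios of 0.09 and 0.43. Plcb4 had ratios of -0.55 and -0.17, and Plcb1 of 0.29 and -0.29. The probes of Plcb1, Plcb4 and Plcg1 gave ratios of both signs, and at 10 µg/ml the median over the Plcb1 probes was -0.47. The other Plcg1 probes gave 0.49 and 0.02, and -1.39 and -0.99.

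Calmodulin binds the ion and passes the signal on. Calm2 gave the brightest signal of the 44 genes, with levels of 6.68, 6.41 and 6.56, and its ratios were -0.27 ± 0.20 and -0.12 ± 0.20. Calm3 had levels of 3.80, 3.76 and 3.94 and ratios of -0.05 and 0.14. Among the CaMKII genes, which encode kinase subunits activated by calmodulin, Camk2g had levels of 4.66, 4.57 and 4.99 and Camk2d of 3.38, 3.16 and 3.35, the forms found in most tissues. Neither was called.

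The neuronal forms of CaMKII gave dim signals and moved apart on the probes used, while their second probes stayed within 2-fold. Camk2a had levels of -3.09, -1.84 and -1.76, higher by 2.38-fold at 10 µg/ml (log2 ratio 1.25 ± 0.21) and 2.51-fold at 40 µg/ml (1.33 ± 0.21). Its second probe gave 0.27 and 0.10, and with the median of both probes the gene was not called. Camk2b had levels of -2.93, -3.67 and -4.01 and was called lower at 40 µg/ml (2.12-fold, -1.08 ± 0.26), where its second probe gave 0.05. Of 8 neural markers, 8, 8 and 7 were well above background on the 3 arrays, with summed signals of 29.0, 26.2 and 21.7. Elavl3 was called higher at 10 µg/ml (4.06) and Stmn2 lower at 40 µg/ml (-1.76), the list had median ratios of -0.24 and -0.61, and the part of such cells was not tested. Calcineurin is the phosphatase that lets NFAT factors enter the nucleus. Its catalytic subunit genes Ppp3ca, with levels of 3.37, 3.44 and 3.75, and Ppp3cb, with levels of 2.31, 2.02 and 2.19, were not called. The NFAT gene Nfatc1 had levels of -0.80, -0.29 and -0.80 and a ratio of 0.51 at 10 µg/ml.

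Most calls were made on dimmer probes. Of the 20 genes whose mean level was above 0, Slc8a3 was the single gene called at either dose. Of the 18 between -4 and 0, 8 were called at 10 µg/ml and 7 at 40 µg/ml. Among all genes of these classes, 2.20% and 20.5% were called at 10 µg/ml and 1.75% and 19.0% at 40 µg/ml. With normexp, the calls left were Atp2a1, Atp2b4, Slc8a3 and Camk2a at 10 µg/ml and Slc8a1, Slc8a3 and Camk2a at 40 µg/ml. Quantile normalization ended the calls of Cacna1d at 10 µg/ml and of Ryr1 and Camk2b at 40 µg/ml, and added Slc8a2 at 10 µg/ml. Subtracting the median ratio at each brightness ended those of Ryr3, Slc8a1 and Cacna1d at 10 µg/ml and of Ryr1, Cacna1d and Camk2b at 40 µg/ml. That subtraction added Slc8a2 at both doses and Trpc6 at 10 µg/ml, all as higher. The median over all probes was 0.90 and 0.75 for Slc8a3, under 2-fold at both doses, and it also ended the calls of Atp2b4 at 10 µg/ml (-0.65), of Camk2a at both doses (0.76 and 0.71) and of Camk2b at 40 µg/ml (-0.52).

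**Figure D3:**
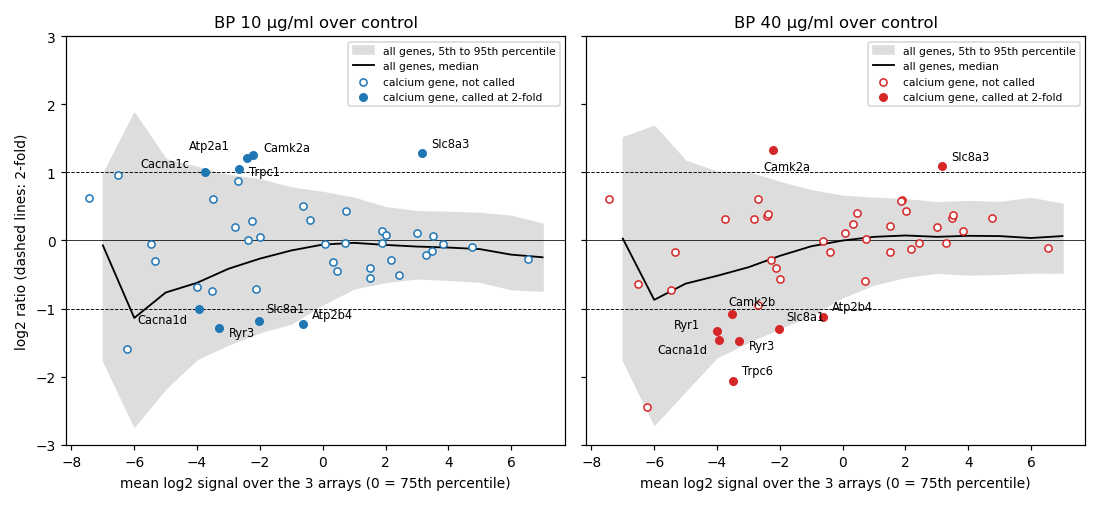
Log2 ratio of each calcium gene over the control (vertical axis) against its mean log2 signal over the 3 arrays (horizontal axis), over the 5th to 95th percentile of all genes in grey and their median as a line. Slc8a3 stands alone as a called gene to the right of 0, and the other called genes lie to the left of 0, where the grey band is wider.

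Of the 44 genes, 24 had more than 1 probe, and 22 had at least 2 probes well above background on all 3 arrays. The probes of a gene had the same sign in 15 of the 22 at 10 µg/ml, in 11 of 22 at 40 µg/ml and in 15 of 22 between the doses. Probes of 1 gene are separate readings of the same RNA, not replicates of the treatment. Over all genes with 2 probes the median SD between their log2 ratios was 0.30 at 10 µg/ml and 0.23 at 40 µg/ml. The 44 probes used had a GC content of 35.0% to 55.0%, with a median of 41.7%, where all gene probes had a median of 43.3%.

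**Figure D4:**
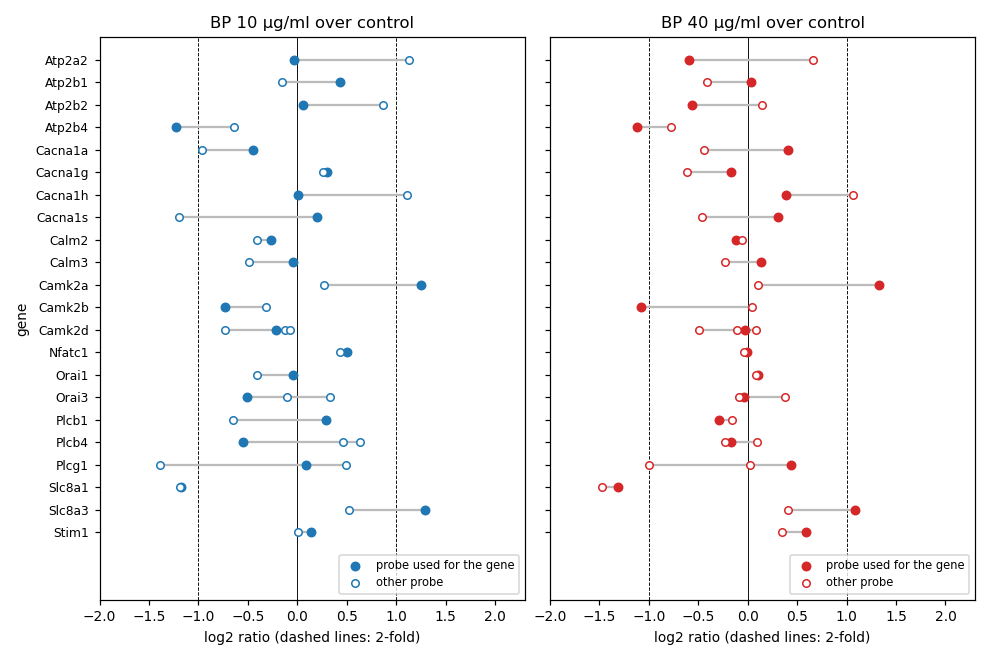
Log2 ratio over the control of each probe (points) for the 22 calcium genes with at least 2 probes well above background on all 3 arrays, with the probe used for the gene filled. The Slc8a1 probes lie close together below 0, while the Camk2a and Atp2a2 probes lie far apart.

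A wider list of 117 other calcium genes was set beside the 44. It too was chosen with earlier results of these data known, so it is not an independent comparison. At 10 µg/ml 15 of the 117 were called lower and 3 higher (12.8% and 2.56%), where 10.3% and 2.6% of all genes were. At 40 µg/ml 15 were lower and 1 was higher (12.8% and 0.855%), where 9% and 2.5% of all genes were. In the comparison of the doses 3 were lower and 2 higher at 40 µg/ml (2.56% and 1.71%), where 1.77% and 1.88% of all genes were. The 117 genes had median log2 ratios of -0.17 and -0.06 against the control. Of the genes called alike at 10 and 40 µg/ml, the 6 with the largest mean ratio comprised 5 that were lower. Sln, which encodes the SERCA inhibitor sarcolipin, was at a level of -3.66 in control MEF and not well above background with BP, and its bounds were log2 ratios of -1.41 and -1.40. Phkg1, the catalytic subunit of muscle phosphorylase kinase, had ratios of -1.92 and -1.85. The calmodulin-dependent phosphodiesterase Pde1c had ratios of -1.51 and -1.52. The channel subunit Cacnb2 had ratios of -1.28 and -1.52, and the muscle channel subunit Cacng1 had bounds of -1.55 and -1.60. Vdac2, a pore of the mitochondrial outer membrane, was the single gene of the list called higher at both doses, with levels of 4.17, 5.30 and 6.06 and log2 ratios of 1.12 and 1.89.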

How the data were processed

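The authors labelled RNA of 3 MEF samples with 1 dye, hybridised it to an Agilent mouse 8x60K array and deposited the Feature Extraction output (version 10.5.1.1), which gives for each spot a background-subtracted processed intensity, mean and background intensities and quality flags. The deposited flags hold 0 or 1. The value table of the series holds the same intensities (100% equal) and served as an alternative. Log2 intensity minus the array's 75th percentile over gene spots without outlier flags was used, with Python 3.11.15 and, for the quantile and normexp (offset 50) alternatives, limma 3.58.1. Spots of a probe were averaged. Where a gene has several probes, the one above background on most arrays, then the brightest, was used. Of 55681 gene probes, 26425 took current RefSeq symbols by accession and the rest kept the file's names. Coordinates are the file's, on mm9. Depth does not apply to arrays, and 1 array per group limits the precision. Calls were made at 2-fold. The steps were tested on simulated data. Only genes above a signal cutoff were changed there, each by more than 2-fold. The simulation therefore does not cover calls on the dimmest probes or ratios near 2-fold. The 44 genes, the 117 others and the markers were chosen with earlier results of these data known. All 44 genes were named by role, with levels for called and bright ones and the 6 other calcium genes that ranked first. The authors' own analysis used GeneSpring GX.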

Additional observations from a re-analysis of the deposited data

Results flagged for a closer look

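Trpc1 moved in opposite directions at the 2 doses, by at least 1.5-fold in each, with its probe well above background on all 3 arrays. Its log2 ratio against the control was 1.05 at 10 µg/ml and -0.95 at 40 µg/ml, and that between the doses was -2.0. The difference was not tested, because each dose has 1 array. Under the alternative settings the ratio between the doses ran from -2.09 to -1.21. At 40 µg/ml against the control it was -0.55 under normexp and -0.56 after subtracting the median ratio at each brightness. Both fall short of 1.5-fold, so the flag does not hold under those settings. At 10 µg/ml the ratio ran from 0.66 to 1.46.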

How the results depend on the processing

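No paired analysis was possible because there was a single array per group, which also left no array to leave out. Of 140 values of called genes under the alternatives none changed sign, 102 moved by less than the spread between probes and 38 by more. Of 87 counts and medians, 66 held and 21 moved. These totals include 20 and 9 values from the series table, which equals the scanner values and changes nothing. Slc8a1 at 40 µg/ml, Atp2a1 at 10 µg/ml and Trpc1 and Trpc6 between the doses were past 2-fold under the 6 settings that change ratios, of which the median over probes changes nothing for the single-probe genes Atp2a1, Trpc1 and Trpc6. At a threshold of 1.5-fold the members called numbered 14 at 10 µg/ml, 14 at 40 µg/ml and 9 between the doses, and the other calcium genes 41, 34 and 13, where 28.5%, 26.5% and 13.3% of all genes were called. At 3-fold the members numbered 0 and 1 against the control, and the other genes 1, 3 and 1, where 2.63%, 2.32% and 1.13% of all genes were called. With both arrays required above background, 1 member was called between the doses (2.36% of all genes). Normexp left 4 and 3 members against the control and 4, 3 and 1 other genes, where 4.06%, 3.05% and 1.51% of all genes were called. Quantile normalization called 11 and 9 other genes against the control, where 10.0% and 9.40% of all genes were called. Subtracting the median ratio at each brightness called 11 and 7, where 8.90% and 8.45% of all genes were called. Quantile normalization raised the median of all genes by 0.17 at 10 µg/ml and 0.10 at 40 µg/ml, and normexp by 0.14 and 0.18. The causes were not tested. Dim probes limit ratios to bounds: on the control, 10 µg/ml and 40 µg/ml arrays 2, 5 and 6 of the 44 were not well above background.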
